A study of Mus musculus with 8 samples.

Results

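Ribosome biogenesis factors are the nuclear and nucleolar proteins that make ribosomal RNA, modify and cut it, and assemble it with ribosomal proteins. The 37 genes described here were taken by name, as probes whose RefSeq accession belongs to one of 37 listed symbols, in a rule that uses no measured value, though the symbols were chosen with earlier results of these data known. All 37 had a probe (50 of the 55681 non-control probes of the array), and all 37 were among the 22687 genes and unnamed features tested. Each of them was well above background on all 8 arrays, so the filter on dim probes removed none.

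The arrays measured total RNA of mouse embryonic stem cells (ESCs) in 4 groups of 2 arrays. The groups were cells given 250 nM 4OHT for 8 h, cells given 250 nM 4OHT for 10 h, cells given 250 nM 4OHT for 8 h and then 1 µM PD0325901 for 2 h, and untreated cells. All 4 groups, untreated cells included, grew in ESC medium that held LIF and 250 nM of PD173074, which blocks FGF receptors. 4OHT, 4-hydroxytamoxifen, switches on proteins that are fused to a modified oestrogen receptor, and the labels name neither the fused protein nor the cell line or clone. PD0325901 inhibits MEK, the kinase that activates ERK. The design text calls the 2 arrays of a group biological replicates, and p-values measure only the spread between these samples. In bulk RNA, fewer cells of a type and less RNA per cell cannot be told apart.

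Ribosome production starts in the nucleolus, where RNA polymerase I copies the ribosomal DNA into a long precursor RNA. Small nucleolar ribonucleoproteins (snoRNPs) then modify that RNA, box C/D particles by methylation and box H/ACA particles by pseudouridylation, and large sets of assembly factors cut and fold it into the small and the large subunit. Growth signalling acts on this pathway at several points, among them phosphorylation of the polymerase I factor RRN3 by ERK and transcription of many assembly factor genes by MYC, which binds the E-box letters CACGTG.

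The sequence before the start of a few members is shown because the E-box letters were the motif searched for with this background in mind. RefSeq windows of assembly GRCm38.p6, from 250 bases before to 50 bases after a start, were found for 31 of the 37 members (33 windows). There was no window for Gnl2, Npm1, Rrp12, Bop1, Fbl and Rrs1. The 250 bases before the start are printed 5′ to 3′ in the direction of transcription for Rrn3 (chr16:13780449-13780698, plus strand), Imp4 (chr1:34439579-34439828, plus strand), Nop2 (chr6:125131633-125131882, plus strand) and Ddx21 (chr10:62602299-62602548, minus strand). Capitals mark CACGTG, the ETS-type letters CCGGAAG and the YY1-type letters AAGATGG, on either strand.
Rrn3: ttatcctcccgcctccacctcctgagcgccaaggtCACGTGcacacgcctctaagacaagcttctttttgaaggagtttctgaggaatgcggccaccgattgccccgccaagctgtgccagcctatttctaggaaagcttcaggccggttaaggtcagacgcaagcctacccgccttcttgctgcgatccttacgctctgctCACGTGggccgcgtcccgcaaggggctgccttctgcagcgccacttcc
Imp4: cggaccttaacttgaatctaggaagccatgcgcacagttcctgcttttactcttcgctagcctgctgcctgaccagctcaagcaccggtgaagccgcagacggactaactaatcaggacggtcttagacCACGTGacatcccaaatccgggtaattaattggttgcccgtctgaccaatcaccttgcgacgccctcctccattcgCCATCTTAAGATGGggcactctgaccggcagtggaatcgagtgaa
Nop2: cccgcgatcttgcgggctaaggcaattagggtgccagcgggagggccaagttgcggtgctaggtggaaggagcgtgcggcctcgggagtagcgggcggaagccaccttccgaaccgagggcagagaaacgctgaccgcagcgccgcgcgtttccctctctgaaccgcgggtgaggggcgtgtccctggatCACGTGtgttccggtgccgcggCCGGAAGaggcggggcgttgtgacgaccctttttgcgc
Ddx21: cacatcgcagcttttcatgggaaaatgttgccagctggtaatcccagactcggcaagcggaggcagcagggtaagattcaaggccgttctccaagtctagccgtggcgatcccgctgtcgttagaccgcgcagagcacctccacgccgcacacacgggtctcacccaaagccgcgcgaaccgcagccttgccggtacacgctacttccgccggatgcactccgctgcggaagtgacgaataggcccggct
Rrn3 has CACGTG at 2 places, Imp4 and Nop2 at 1 each, and Ddx21 has none of the 3 motifs in these bases.

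CACGTG was in a window of 8 of the 31 members, a share of 25.8%, against 8.1% of all 27025 genes with a window and 11.3% of the 11544 genes that were also tested on the arrays. Counted from the start, its first base lay at -215 and -48 in Rrn3, at -121 in Imp4 and at -60 in Nop2, and it lay after the start in Mybbp1a, Pes1, Tsr1, Utp20 and Wdr43. The share was 21.7% among 69 other subunit assembly factors and 10.3% among 58 cytosolic ribosomal protein genes. CCGGAAG was in a window of 25.8% of the members, against 9.9% of all genes, 17.8% of the genes tested, 49.3% of the other subunit assembly factors and 41.4% of the ribosomal protein genes. AAGATGG was in 9.7% of the members, against 7.3% of all genes, 8.1% of the genes tested, 4.3% of the other assembly factors and 17.2% of the ribosomal protein genes. Motif matches describe letters only, and GC content differed between the sets, with a median of 59.7% in member windows, 60.0% in windows of genes tested and 52.7% in all windows.

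The targets of the treatment were checked first. Dusp6, a phosphatase gene that ERK induces, rose by 2.84 ± 0.09 log2 (SE of the limma fit) after 8 h of 4OHT against untreated cells (adjusted p = 0.00019). It fell by 5.85 ± 0.09 in cells given PD0325901 against cells at 4OHT 10 h (adjusted p = 5.27e-05). Egr1, an immediate early gene, moved the same ways, by 3.83 ± 0.29 and by -5.39 ± 0.29. Of 7 ERK output genes examined (Dusp6, Spry2, Spry4, Egr1, Fos, Myc and Etv4), all 7 rose at 8 h. Against 4OHT 10 h, 6 of the 7 fell in PD0325901-treated cells, Spry4 the most, by 7.62. Etv4 differed by -0.31 in that comparison and was not called. In PD0325901-treated against untreated cells Etv4 rose by 1.61, while 4 of the 7 fell. All 8 ESC markers examined (Pou5f1, Sox2, Nanog, Esrrb, Zfp42, Utf1, Tdgf1 and Dppa5a) were well above background on all 8 arrays. At 8 h Nanog fell by 2.59 ± 0.19 (adjusted p = 0.000885) and Utf1 rose by 0.93 ± 0.08 (adjusted p = 0.00141). At 10 h Esrrb (-0.84 ± 0.23, adjusted p = 0.0414) and Nanog (-3.10 ± 0.19) fell and Utf1 (1.00 ± 0.08) rose. In PD0325901-treated cells 3 of the 8 fell against untreated cells (Nanog, Sox2 and Tdgf1) and Utf1 rose, and against 4OHT 10 h Sox2 and Utf1 fell and Nanog rose. The part of these changes in the member results was not tested. The 75th percentile of signal, to which every level below is relative, was 309.0 to 392.6 units over the arrays. Replicate 1 arrays had 36889 to 37789 spots well above background and replicate 2 arrays 30218 to 31433.

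After 8 h of 4OHT, 20 of the 37 ribosome biogenesis factors rose against untreated cells and 0 fell (limma, adjusted p under 0.05 over all genes tested, here termed called), where 10.3% of all genes tested were called higher and 11.5% lower. At an unadjusted p under 0.05, 30 were higher and 0 lower, where 3639 and 4456 of all 22687 genes tested were. All 37 estimates were above 0 as reported, as were those of 10279 of all 22687 genes tested. Polr1a was below 0 with quantile normalization (-0.10), with normexp background and in 2 of the fits without 1 array. The median was 0.33 log2 and the range 0.01 to 0.73, beside a median of -0.04 over all genes tested. In 34 of 37 members both 4OHT arrays lay above both untreated arrays, which was so for 28.5% of all genes tested. The medians of the members within replicate 1 and within replicate 2 were 0.38 and 0.33.

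The polymerase I genes were split. Rrn3 encodes the factor that brings polymerase I to the ribosomal DNA promoter, and its log2 level was 5.23 and 5.30 after 8 h of 4OHT, against 4.63 and 4.64 in untreated cells. The arrays of the 2 groups were far apart, and Rrn3 rose by 0.63 ± 0.07 or 1.55-fold (adjusted p = 0.00283). Polr1b, the second largest subunit of the enzyme, had 3.79 and 3.77 after 8 h of 4OHT, against 3.41 and 3.39 in untreated cells, and rose by 0.38 ± 0.07 (adjusted p = 0.0156). Polr1a, its largest subunit, had 4.23 and 4.32 after 8 h of 4OHT, against 4.19 and 4.34 in untreated cells, so the groups overlapped (difference 0.01 ± 0.11, adjusted p = 0.974).

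Among the 7 multifunctional nucleolar proteins, 2 rose. Ddx21, an RNA helicase that acts in both polymerase I transcription and rRNA processing, had the largest difference of the 37 members in this comparison. Its log2 level was 5.07 and 5.09 after 8 h of 4OHT, against 4.38 and 4.32 in untreated cells, a rise of 0.73 ± 0.08 or 1.66-fold (adjusted p = 0.00294). A second Ddx21 probe gave 0.49 and was also called. Ncl, nucleolin, an abundant RNA-binding protein of the nucleolus, had 8.03 on both arrays after 8 h of 4OHT, against 7.63 and 7.70 in untreated cells (0.37 ± 0.07, adjusted p = 0.0159), and its other probe was not called (0.20).

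The other 5 nucleolar proteins were not called at 8 h. Npm1, nucleophosmin, a histone chaperone abundant in the nucleolus, had 9.15 and 9.12 after 8 h of 4OHT, against 9.0 and 9.11 in untreated cells (0.08 ± 0.07). Its 5 probes did not give one answer, since 1 of the 4 others was called at 0.34 and the remaining 3 were not. Nolc1, a chaperone of snoRNPs, differed by 0.25 ± 0.08 (adjusted p = 0.0777) and Mybbp1a, a MYB-binding protein of the nucleolus, by 0.25 ± 0.09 (adjusted p = 0.0928), both with arrays that did not overlap. Pa2g4, a growth regulator also called EBP1, differed by 0.18 ± 0.17.

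Lyar, a nucleolar zinc finger protein, differed widely between replicates. Its log2 level was -1.36 and -2.23 after 8 h of 4OHT, against -2.45 and -2.21 in untreated cells, and only replicate 1 of 4OHT 8 h stood above the rest (0.53 ± 0.28, adjusted p = 0.24). Without replicate 2 of 4OHT 8 h its difference was 0.96 (adjusted p = 0.0304), and without replicate 1 of 4OHT 8 h it was 0.10.

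None of the 6 snoRNP members was called, although all 6 estimates were above 0 and in all 6 the arrays did not overlap. At an unadjusted p under 0.05, 1 of the 3 box C/D genes and 3 of the 3 box H/ACA genes were higher. So were 3639 of all 22687 genes tested. Fbl, the methyltransferase fibrillarin, differed by 0.14 ± 0.08, and its partners Nop56 and Nop58, the scaffold proteins of the same particle, by 0.17 ± 0.08 and 0.29 ± 0.10. Of the H/ACA particle, Dkc1, the pseudouridine synthase dyskerin, differed by 0.22 ± 0.06 (adjusted p = 0.0633), Gar1 by 0.26 ± 0.10 and Nhp2 by 0.24 ± 0.08. With each array centred on its median in place of its 75th percentile, Nop58, Dkc1 and Nhp2 were called at 8 h.

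Small subunit assembly had the highest share of called members, 9 of 11. Rrp9, the U3 snoRNP protein that guides the first cuts of the precursor, had 4.59 and 4.62 after 8 h of 4OHT, against 4.12 and 3.97 in untreated cells, a rise of 0.55 ± 0.08 (adjusted p = 0.00778). Imp4, a partner of U3, had 4.11 and 4.09 after 8 h of 4OHT, against 3.64 and 3.63 in untreated cells (0.47 ± 0.07, adjusted p = 0.00784). In both genes replicates of a group differed by far less than the groups did.

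The other called small subunit genes rose by 0.33 to 0.44. They were Heatr1, Utp15 and Wdr43, which belong to the complex that joins polymerase I transcription to early cutting, Nop14, a scaffold of the early particle, and Rrp12, Tsr1 and Bysl, which act on later nuclear and cytoplasmic precursors. Heatr1 had 6.49 and 6.48 after 8 h of 4OHT, against 6.03 and 6.16 in untreated cells. Utp20 (0.28 ± 0.10, adjusted p = 0.112) and Noc4l, whose yeast counterpart binds that of Nop14 (0.20 ± 0.08, adjusted p = 0.129), were not called.

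Of the 10 large subunit assembly members, 7 rose. Gnl3, nucleostemin, a GTP-binding nucleolar protein known from stem cells, had 4.86 and 4.77 after 8 h of 4OHT, against 4.31 and 4.26 in untreated cells, a rise of 0.53 ± 0.07 (adjusted p = 0.00533). Rrs1, which in yeast helps bring the 5S RNA particle into the subunit, had 4.21 and 4.36 after 8 h of 4OHT, against 3.70 and 3.81 in untreated cells (0.53 ± 0.10, adjusted p = 0.018). The groups were separate for both genes.

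Nop16 and Wdr74, both of which act in large subunit assembly, rose by 0.51 ± 0.08 and by 0.47 ± 0.07. Gnl2, a GTPase, rose by 0.46 ± 0.06 and Nop2, an rRNA methyltransferase, by 0.31 ± 0.07. Wdr12 forms one complex with Bop1 and Pes1 in mammalian cells, and it rose by 0.48 ± 0.10 (adjusted p = 0.0196). Its partners were not called, Bop1 at 0.24 ± 0.09 (adjusted p = 0.124) and Pes1 at 0.19 ± 0.10 (adjusted p = 0.239). Ftsj3, another rRNA methyltransferase, was not called at 8 h (0.26 ± 0.10). The difference between Wdr12 and its partners was not tested.

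**Figure D1:**
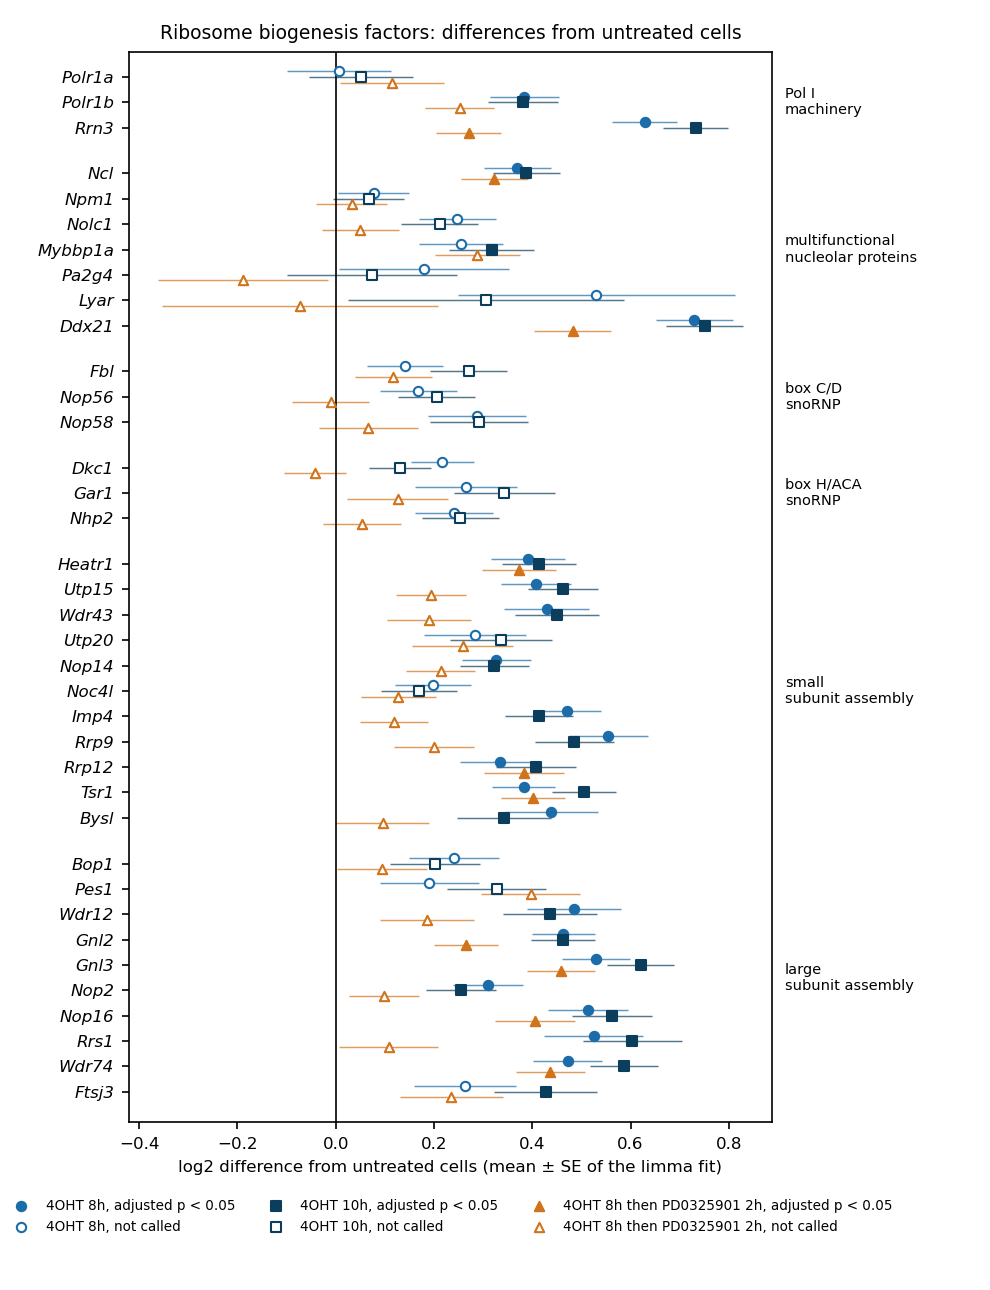
Difference in log2 level from untreated cells (horizontal axis, point and SE of the limma fit) for each of the 37 members, grouped by role, after 4OHT 8 h (circles), after 4OHT 10 h (squares) and after 4OHT 8 h then PD0325901 2 h (triangles), with filled symbols at an adjusted p under 0.05. All 37 circles and all 37 squares lie above 0 (with quantile normalization 36 and 34 would), Ddx21 and Rrn3 are farthest to the right at both times, and the triangles of 10 members are filled.

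Of the 20 calls at 8 h, 17 were lost in at least 1 fit without 1 array. The count was 9 without untreated replicate 1, 12 without untreated replicate 2, 6 without 4OHT 8 h replicate 1 and 5 without 4OHT 8 h replicate 2, with 0 called lower each time. Rrn3, Ddx21 and Gnl3 were called in each of the 8 fits that left out 1 array, and the other 17 had adjusted p-values of 0.0502 to 0.167 where lost. The median of the members stayed between 0.32 and 0.38 over these 8 fits. In each of them a smaller share of all genes tested was called higher than as reported.

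After 10 h of 4OHT, 22 members rose against untreated cells and 0 fell, where 13.1% of all genes tested were called higher and 14.8% lower. The median of the members was 0.34, beside -0.05 over all genes tested. In 35 of 37 members both 4OHT 10 h arrays lay above both untreated arrays, which was so for 31.1% of all genes tested. All 37 estimates were above 0 as reported, as were those of 10259 of all 22687 genes tested. Npm1, Pa2g4 and Polr1a were below 0 with quantile normalization. Pa2g4 and Polr1a were so also in the fits that left out untreated replicate 1 or 4OHT 10 h replicate 2. The medians within replicate 1 and within replicate 2 were 0.39 and 0.37. The 2 times share the untreated arrays, so they are not independent. Mybbp1a (0.32 ± 0.09, adjusted p = 0.0428) and Ftsj3 (0.43 ± 0.10, adjusted p = 0.0317), not called at 8 h, were called at 10 h.

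Rrn3 had 5.35 and 5.38 after 10 h of 4OHT, against 4.63 and 4.64 in untreated cells, a rise of 0.73 ± 0.07 or 1.66-fold (adjusted p = 0.00143). Ddx21 had 5.06 and 5.14 after 10 h of 4OHT, against 4.38 and 4.32 in untreated cells (0.75 ± 0.08, 1.68-fold, adjusted p = 0.00217). Gnl3 rose by 0.62 ± 0.07 or 1.54-fold, Rrs1 by 0.60 ± 0.10 and Wdr74 by 0.59 ± 0.07. The snoRNP members were again not called, with estimates of 0.13 to 0.34, of which Fbl was nearest to the threshold (adjusted p = 0.051). With each array centred on its median all 6 were called at 10 h, and with normexp background Fbl, Nop58 and Gar1 were.

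Rrn3, Ddx21, Utp15, Tsr1, Gnl2, Gnl3, Nop16 and Wdr74 were called at 10 h in each of the 8 fits without 1 array. The count fell to 10 without untreated replicate 1, to 12 without 4OHT 10 h replicate 1 and to 8 without 4OHT 10 h replicate 2. Over all genes tested, too, a smaller share was called higher in each of the 8 fits without 1 array than as reported. Centring arrays on the median gave 32 members at 10 h and 26 at 8 h.

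That centring moved the median of all genes by 0.19 at 10 h, by 0.14 at 8 h and by 0.11 in PD0325901-treated against untreated cells. It also moved the balance of calls over all genes. At 8 h, 2329 genes were called higher and 2602 lower relative to the 75th percentile, and 3038 higher and 1511 lower relative to the median. At 10 h these counts were 2977 and 3353 relative to the 75th percentile, and 4859 and 1851 relative to the median. The median of the members minus that of all genes was 0.37 at 8 h and 0.39 at 10 h on both scales.

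Between 10 h and 8 h of 4OHT no member was called, and neither was any other gene tested (limma, 0 of 22687, 0% in either direction). At an unadjusted p under 0.05 no member was higher or lower, and 715 and 784 of all genes were. The member differences ran from -0.22 (Lyar) to 0.16 (Ftsj3), with a median of 0.02.

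With MEK inhibited for the last 2 h, 2 of the 37 members fell against time-matched cells at 4OHT 10 h and 0 rose, where 2.87% of all genes tested were called lower and 3.24% higher. The estimate was below 0 for 35 of 37 members, all but Polr1a (0.06 ± 0.11) and Pes1 (0.07 ± 0.10), and for 12947 of all 22687 genes tested. The member count was 27 of 37 with quantile normalization, 34 with normexp background and 37 with median centring. The median was -0.16, beside -0.04 over all genes tested, and within replicate 1 and replicate 2 it was -0.16 and -0.19. At an unadjusted p under 0.05, 13 were lower and 0 higher, where 2466 and 2339 of all 22687 genes tested were. In 30 of 37 members both PD0325901 arrays lay below both arrays at 4OHT 10 h, which was so for 30.7% of all genes tested.

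Rrn3 had 4.89 and 4.92 in PD0325901-treated cells, against 5.35 and 5.38 at 4OHT 10 h, and fell by 0.46 ± 0.07, or 1.38-fold (adjusted p = 0.0194). Rrs1 had 3.78 and 3.95 in PD0325901-treated cells, against 4.32 and 4.40 at 4OHT 10 h, and fell by 0.50 ± 0.10 or 1.41-fold, at the edge of the threshold (adjusted p = 0.04998). In both genes the inhibited arrays lay below both arrays at 4OHT 10 h. Neither call held in all fits without 1 array, where 1 member was called without any 1 untreated or 4OHT 8 h array and 0 without any 1 4OHT 10 h or PD0325901 array. The adjusted p reached 0.122 for Rrn3 and 0.23 for Rrs1.

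Other members had smaller estimates without a call. Lyar differed by -0.38 ± 0.28 (adjusted p = 0.502). Imp4 differed by -0.30 ± 0.07 (adjusted p = 0.0727), Rrp9 by -0.29 ± 0.08, Utp15 by -0.27 ± 0.07, Ddx21 by -0.27 ± 0.08 (adjusted p = 0.125) and Wdr43 by -0.26 ± 0.09. At the other end stood members with small differences as reported. Heatr1 had 6.48 and 6.45 in PD0325901-treated cells, against 6.48 and 6.53 at 4OHT 10 h (-0.04, but -0.26 with normexp background, not called in either). Ncl had 7.95 and 8.02, against 8.04 and 8.07 at 4OHT 10 h. Rrp12 differed by -0.03 ± 0.08 and Mybbp1a by -0.03 ± 0.09.

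The size of these differences depended on the scaling. With quantile normalization the median of the members was -0.05 and 0 members were called. With arrays centred on the median it was -0.24 with 2 called, and over all genes 490 were then called higher and 683 lower, where the 75th percentile gave 736 higher and 652 lower. Estimates for the box C/D members, -0.15 to -0.23, and the box H/ACA members, -0.17 to -0.22, were within the range of the others. Of these 6, 0 were called, and 3 were lower at an unadjusted p under 0.05 (2466 of all 22687 genes tested).

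Against 4OHT 8 h, the time at which the inhibitor was added, 2 members fell and 0 rose (3.11% of all genes tested called lower, 3.4% higher). They were Rrn3 (-0.36 ± 0.07, adjusted p = 0.0371) and Imp4. Imp4 had 3.70 and 3.80 in PD0325901-treated cells, against 4.11 and 4.09 at 4OHT 8 h, and fell by 0.35 ± 0.07 (adjusted p = 0.0425). Rrp9 (-0.35 ± 0.08, adjusted p = 0.0649) and Rrs1 (-0.42 ± 0.10, adjusted p = 0.0755) came next by adjusted p. With the replicate number as a block 7 members were called lower, where 6.62% of all genes tested were. In each of the 8 fits without 1 array no member was called. This comparison and the one with 4OHT 10 h share the inhibited arrays.

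**Figure D2:**
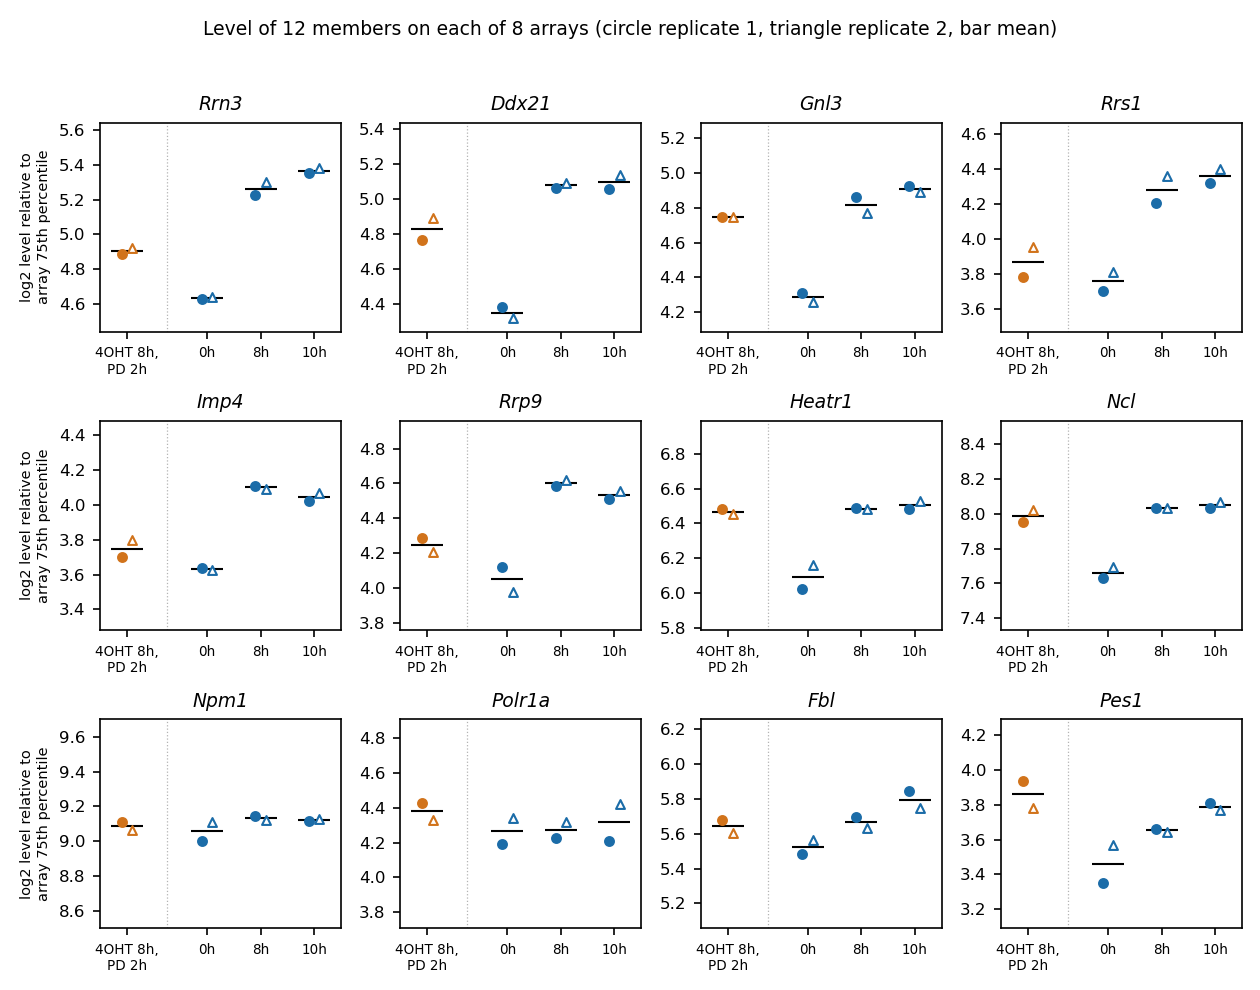
Log2 level relative to the array's 75th percentile (vertical axis, the same span in each panel) of 12 members on each of the 8 arrays, with 4OHT 8 h then PD0325901 2 h at the left and 0, 8 and 10 h of 4OHT to its right, circles for replicate 1, triangles for replicate 2 and bars for the mean of 2. Rrn3, Rrs1 and Imp4 lie below their 8 and 10 h levels in the inhibited cells, Heatr1 and Ncl differ little between them and 8 or 10 h, and Polr1a overlaps between groups.

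In cells given 4OHT and then PD0325901, 10 members rose against untreated cells and 0 fell, where 7.06% of all genes tested were called higher and 8.8% lower. The median was 0.19, beside -0.07 over all genes tested, and arrays did not overlap upwards in 24 members (23.5% of all genes tested) and downwards in 1, Dkc1 (-0.04 ± 0.06; 36.8% of all genes tested). The 10 were Rrn3, Ncl, Ddx21, Heatr1, Rrp12, Tsr1, Gnl2, Gnl3, Nop16 and Wdr74. This comparison shares the untreated arrays with those at 4OHT 8 h and 10 h.

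Ddx21 had 4.77 and 4.89 in PD0325901-treated cells, against 4.38 and 4.32 in untreated cells (0.48 ± 0.08, adjusted p = 0.0154). Gnl3 had 4.75 and 4.74 in PD0325901-treated cells, against 4.31 and 4.26 in untreated cells (0.46 ± 0.07, adjusted p = 0.0125). Rrs1 and Imp4 were not called, at 0.11 ± 0.10 and 0.12 ± 0.07, and in Rrs1 the arrays overlapped with those of untreated cells. The rise of Heatr1 of 0.37 was lost with normexp background (0.08, adjusted p = 0.74). Rrn3 rose by 0.27 ± 0.07 (adjusted p = 0.0474).

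None of the 10 calls held in all fits without 1 array. The count was 0 without untreated replicate 2 or without PD0325901 replicate 2, 2 without untreated replicate 1 or PD0325901 replicate 1, and 4 without any 1 of the arrays at 4OHT 8 h or 10 h. The share of all genes tested that was called higher was also below that as reported in each fit without 1 array. Centring on the median gave 12 members and, over all genes, 1871 higher and 915 lower, where the 75th percentile gave 1601 and 1996.

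Of 13 other probes, for 9 members, 13 had the sign of the probe used at 8 h and 13 at 10 h, and 9 did so in PD0325901-treated cells against 4OHT 10 h. Of the 4 members called at 8 h that had another probe, 2 were also called by it, Ddx21 and Wdr43. Npm1 and Nolc1 had another probe that was called where the one used was not. It gave 0.34 at 8 h and 0.41 at 10 h for Npm1, and for Nolc1 0.33 at 10 h and 0.45 after the inhibitor, all against untreated cells.

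Assembly factors outside the 37 genes were read the same way. After 8 h of 4OHT, 21 of 39 other small subunit factors rose (median 0.31), as did 19 of 40 other large subunit factors (median 0.31) and 9 of 25 other polymerase I and III genes (median 0.24), and 0 fell in each list. The medians stayed above 0 under each scaling, at 0.21, 0.21 and 0.19 with quantile normalization, where 12, 10 and 8 were called higher. The genes with the smallest adjusted p were Nol10 (0.75 ± 0.09), Wdr36 (0.72 ± 0.07) and Ddx10 (0.59 ± 0.07) for the small subunit and Tex10, Lsg1 and Gtpbp4 (0.44 to 0.53) for the large one. For the polymerases they were Polr3a, the largest subunit of polymerase III (0.63 ± 0.09), Polr3d, another subunit (0.49 ± 0.08), and Bdp1, part of its initiation factor TFIIIB (0.48 ± 0.08). Of the 17 alternatives, the call was lost in 1 for Lsg1 and Polr3a, 3 for Polr3d and 4 for Gtpbp4 and Bdp1.

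In PD0325901-treated cells against 4OHT 10 h, 2 of 39 other small subunit factors fell (Imp3, a U3 partner of Imp4, by 0.51 ± 0.07 and the kinase Riok2 by 0.42 ± 0.08). So did 2 of 40 other large subunit factors (Surf6 by 0.50 ± 0.09 and the export adaptor Nmd3 by 0.39 ± 0.07) and 4 of 25 polymerase genes. Among the 4 were Polr3d (-0.65 ± 0.08), Bdp1 (-0.56 ± 0.08) and Polr3a (-0.46 ± 0.09). None rose in these lists. With quantile normalization their medians were -0.05 each and 1, 0 and 2 fell. Of the 17 alternatives run, the call was lost in 6 for Imp3, 11 for Riok2, 9 for Surf6, 11 for Nmd3, 5 for Polr3d, 8 for Bdp1 and 12 for Polr3a.

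Cytosolic ribosomal protein genes, which encode the parts that the members assemble, were not called in any comparison as reported. With arrays centred on the median 16 of 78 were called higher at 10 h, where 21.4% of all genes tested were. Of the 78 tested, 0 were called after 8 h of 4OHT (limma; unadjusted, 0) and the median was 0.07, with a range of -0.03 to 0.17, and 0.01 with quantile normalization, 0.06 with normexp background and 0.21 with median centring (0 called in each). At 10 h 0 were called, with 2 higher at an unadjusted p under 0.05 (4200 of all 22687 genes tested). The median was 0.12, and 0.01 with quantile normalization and 0.31 with median centring. Their median in PD0325901-treated cells against 4OHT 10 h was -0.11, with 0 called, and it was 0.00 with quantile normalization and -0.19 with median centring. Ribosomal protein probes can also detect processed pseudogene transcripts, and the difference between these genes and the members was not tested.

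**Figure D3:**
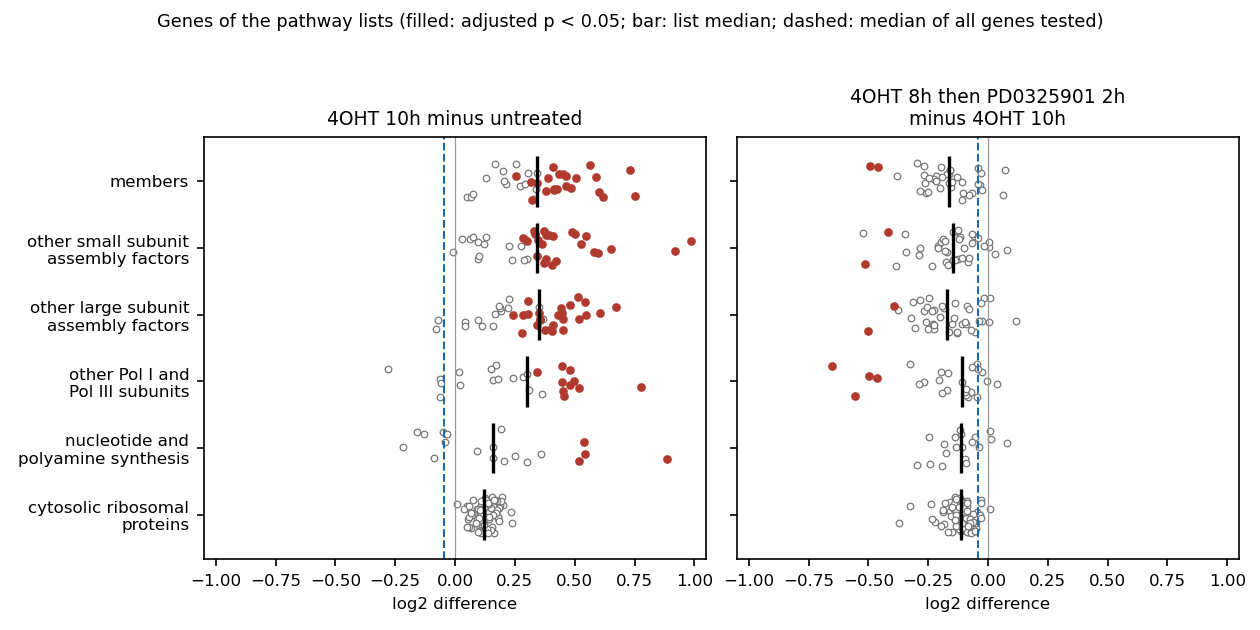
Log2 difference (horizontal axis) of every gene in 6 lists, as 4OHT 10 h minus untreated (left) and 4OHT 8 h then PD0325901 2 h minus 4OHT 10 h (right), each point 1 gene, filled at an adjusted p under 0.05, with a bar at the list median and a dashed line at the median of all genes tested. At 10 h the members and the other subunit assembly factors spread up to 0.75 and 0.99 with medians of 0.34 to 0.35. No ribosomal protein gene is beyond 0.24 or called at 10 h. With median centring 16 of 78 are called, where 21.4% of all genes tested are called higher. In the inhibited cells the medians of the lists lie between -0.11 and -0.17 (between 0.00 and -0.05 with quantile normalization).

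Nucleotide and polyamine synthesis genes, which supply growing cells, gave 3 called higher of 19 at 8 h and 0 lower. Of all genes tested 10.3% were called higher. The median of the 19 was 0.11, and 7 of them were below 0. The 3 called were Srm, spermidine synthase (0.42 ± 0.07), Nme1, a nucleoside diphosphate kinase (0.40 ± 0.06), and Sms, spermine synthase (0.65 ± 0.11). These calls were lost in 3 of the 17 alternatives for Srm and in 4 each for Nme1 and Sms. None of the 19 was called in PD0325901-treated cells against 4OHT 10 h, with a median of -0.11.

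Myc, the transcription factor gene named above, differed far more between groups than any member did. Its log2 level was 3.97 and 4.14 after 8 h of 4OHT, against 1.70 and 1.67 in untreated cells, a rise of 2.37 ± 0.15 (adjusted p = 0.000674). It was -1.29 and -0.96 in PD0325901-treated cells, against 4.00 and 4.28 at 4OHT 10 h, and fell by 5.26 ± 0.15 (adjusted p = 0.00028). In inhibited cells Myc was below untreated cells (-2.81 ± 0.15, adjusted p = 0.000812). The part of Myc in the member results was not tested, and the arrays do not measure MYC protein.

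Other genes of the Myc network were measured beside it, and only some are named here. Of the 11 tested, Myc included, 1 rose and 2 fell at 8 h. At 10 h 4 rose and 3 fell, where 13.1% of all genes tested were called higher and 14.8% lower. Mycn, a close relative, was lower by 0.31 ± 0.09 at 8 h (adjusted p = 0.0644) and fell by 0.43 ± 0.09 at 10 h (adjusted p = 0.0208). Mycl fell by 2.35 ± 0.24 and Mxd3, which encodes a MAX partner that represses E-box genes, by 0.90 ± 0.12 at 8 h, and both rose in PD0325901-treated cells against 4OHT 10 h, by 1.39 ± 0.24 and 1.33 ± 0.12. The second Mycl call was lost in 8 of the 17 alternatives. Max itself was not called at 8 h (0.19 ± 0.07) and rose by 0.30 ± 0.07 at 10 h (adjusted p = 0.0269). Max lost that call with quantile normalization (0.16) and Mycn with median centring (-0.24), and both lost it in some fits without 1 array.

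Members with CACGTG near the start were set beside those without it, with no test. At 8 h the median was 0.35 for the 8 with it, of which 5 were called higher, and 0.37 for the 23 without it, of which 12 were. In PD0325901-treated cells against 4OHT 10 h it was -0.13 for the 8 and -0.19 for the 23. Rrn3, Imp4 and Nop2 have the letters before the start. In PD0325901-treated cells against 4OHT 10 h Rrn3 fell, while Imp4 (-0.30) and Nop2 (-0.16) were not called. Ddx21 and Gnl3 have none in their windows, and there was no window for Rrs1.

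Markers of other cell types moved with the treatment too. The summed linear level of 7 trophoblast markers, relative to the 75th percentile, was 34.5 to 40.6 after 8 h of 4OHT, 47.6 to 61.4 after 10 h and 35.7 to 37.4 after the inhibitor, against 10.2 to 13.3 in untreated cells. Of the 7, Cdx2, Gata3, Krt8, Krt18 and Eomes were well above background on all 8 arrays, Hand1 on 6 and Elf5 on 1. The sum does not show these markers moving together, and of the 6 tested Krt18 had the highest level on every array. At 8 h 4 of the 6 rose, the most Cdx2 (6.37), while Krt8 differed by -0.22 and was not called. In PD0325901-treated cells against 4OHT 10 h 2 of the 6 fell and 0 rose, with differences from -1.39 (Cdx2) to 0.96 (Gata3). The sum of 7 fibroblast markers was 17.6 to 37.3 after 8 h of 4OHT, 19.0 to 41.0 after 10 h and 13.8 to 25.3 after the inhibitor, against 2.29 to 3.43 in untreated cells. Of the 3 fibroblast markers tested, Thy1 rose at 8 h by 3.49 ± 0.60 (adjusted p = 0.0129), while Col1a1 (-0.27 ± 0.11) and Col1a2 (-0.36 ± 0.25) were not called. Col1a1 fell at 10 h by 0.59 ± 0.11 (adjusted p = 0.0126). Of the other 4, Lum was well above background on 0 arrays, Postn and Dcn on 1 and Col3a1 on 2. The sum of 7 primitive endoderm markers went with the replicate number, at 2.88 to 3.64 on replicate 1 arrays and 0.957 to 1.19 on replicate 2 arrays. The part of these cell types in the member results was not tested.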

How the data were processed

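The arrays are 1-colour Agilent arrays (design 028005, build mm9) on a single slide. RNA was amplified and labelled from 100 ng, per the labels' protocols. The processed signal is an intensity with background subtracted and no scaling between arrays, written by Agilent Feature Extraction 11.0.1.1 per the file headers. The deposited files also hold marks of 0 or 1 for spots that are outliers, saturated (0 spots here) or well above background, and the authors' series values hold the same intensity to within 0.5%. The number of arrays limits the precision.

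Levels are log2 of that intensity minus the 75th percentile of the non-control spots of the same array. Outlier spots were left out per array and spots of a probe averaged. Probes had to be well above background on both arrays of some group (30329 were), and each gene took its brightest such probe. Symbols came from matching RefSeq accessions to RefSeq names for GRCm38.p6 (27656 probes with 1 symbol, 0 with several, 28025 with none). With limma 3.58.1 in R 4.3.3 (package data.table, version 1.17.8) all 8 arrays entered a model with a mean for each group (4 residual and 1.71 prior degrees of freedom, median residual SD 0.129). Moderated tests were two-sided, with Benjamini-Hochberg adjustment over 22687 features and a threshold of 0.05. Files were read and drawn with Python 3.11.15, numpy 2.4.6, pandas 2.3.3 and matplotlib 3.10.9. The limma fit was tested on simulated data for 4OHT 8 h against untreated, with noise independent between arrays. Reading, scaling, filtering and the choice of probes were not simulated.

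The member symbols and all gene lists were chosen with earlier results of these data known, although the rule itself uses no measured value. Every member is named. Of the other lists, up to 3 called genes each way with the smallest adjusted p are named, at 4OHT 8 h against untreated and in PD0325901-treated cells against 4OHT 10 h, and always Myc, Mycn, Max, Dusp6 and Egr1.

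The replicate number is also the arrays' row on the slide, while each column holds one group, so column and group cannot be told apart. Deviations of same-numbered arrays from their group means correlated over genes at 0.287 to 0.356 in all 6 pairs of groups, so a fit with the number as a block was run. Alternatives were quantile normalization, median centring, normexp background (offset 50), no dim-probe filter, the mean of a gene's probes, only the groups compared, a trend and robust prior, the authors' series values and leaving out each array.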

Additional observations from a re-analysis of the deposited data

How the results depend on the processing

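No call of a member or of another named gene changed direction under any of the 17 alternatives, and 0 members were called lower against untreated cells or higher against 4OHT. At 4OHT 8 h against untreated, the 20 members called higher became 8 with no filter on dim probes, 7 with only the groups compared and 5 to 19 in the fits without 1 array. At 4OHT 10 h against untreated, 22 became 10 with no filter, 10 with only the groups compared and 8 to 19 without 1 array. After the inhibitor against untreated, 10 became 0 with no filter, 0 with only the groups compared and 0 to 4 without 1 array. After the inhibitor against 4OHT 10 h, the 2 called lower became 0 with no filter, 0 with only the groups compared, 0 with quantile normalization, 1 with normexp background, 5 with the trend and robust prior and 0 to 1 without 1 array. After the inhibitor against 4OHT 8 h, the 2 called lower became 0 with no filter, with only the groups compared, with quantile normalization and with median centring, 6 with the trend and robust prior, 7 with the replicate block and 0 without any 1 array. Shares of all genes tested moved too. Called higher at 8 h were 3.1% with no filter and 5.65% with only the groups compared, against 10.3% as reported. At 10 h these were 4.26% and 7.83%, against 13.1%. After the inhibitor against untreated they were 1.65% and 3.39%, against 7.06%. Called lower against 4OHT 10 h were 0.457% and 0.67%, against 2.87%. In each fit without 1 array these shares were also below those as reported. With no filter 36982 or more features were tested in place of 22687, and the fit of only the groups compared has fewer arrays. The cause of the other shifts was not tested. The replicate block gave 23 members at 8 h, 25 at 10 h, 3 lower after the inhibitor against 4OHT 10 h and 13 higher against untreated. In the same order, 14.3%, 17.6%, 5.77% and 11.5% of all genes tested were called that way. The block ended no call. The value table and the mean of a gene's probes kept every count within 1.5 times.

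Groups of 2 arrays limit every result, no member difference as reported exceeded 1.68-fold, and a member not called is not shown to be unchanged.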
